A study of Mus musculus with 10 samples.

Results

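The genes described here encode the structural matrix that surrounds cells: collagen chains, laminins, nidogens, perlecan, elastic fibre proteins, lysyl oxidases, matricellular proteins, small and large proteoglycans, and matrilins. They were chosen by name, with earlier results of these data known. The rule took every array feature whose only gene symbol named a numbered collagen chain, laminin chain, nidogen, fibulin, Efemp gene or fibrillin. It likewise took Mfap genes, thrombospondins, lysyl oxidases and matrilins, and Sparc, Bgn, Dcn, Lum, Tnc, Vcan, Eln, Fmod, Ogn and Hspg2. This gave 64 of the 9596 features of the arrays, for 58 genes, of which 6 had 2 features each. All 64 had a value on all 10 arrays, and no filter on low values was applied. Fn1, Spp1 and Postn, also sought by name, were not analysed here.

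The study set macrophages of tumours against macrophages of the peritoneal cavity on spotted cDNA arrays, each array taking total RNA of 1 condition per channel in its 2 channels. Both cell kinds came from C57/6N black mice of 8 weeks: exudate cells of the peritoneum that adhered in culture (PEC), and macrophages of tumours (TAM, tumour-associated macrophages) that were collected 3 weeks after a tumour was implanted and were likewise kept in culture as adherent cells. Where lipopolysaccharide (LPS, a bacterial cell wall component that activates macrophages) was given, it was at 100 ng/mL for 4 hours. TAM were set against PEC without LPS on 4 arrays (TAM-2R, TAM-3, TAM-8 and TAM-b) and with LPS in both on 2 (TAM1 and TAM7), and LPS was set against no LPS in PEC on 2 (PEC1 and PEC2) and in TAM on 2 (TAM-trial and TAM-16). The labels give adherence as the only selection of the cells, do not name the tumour, and do not say how many mice stand behind an array, so p-values measure the spread between arrays, which may be technical.

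Fibrillar collagens such as types I and V form the tensile fibres of connective tissue, whereas type IV collagen, laminins, nidogens and perlecan build the sheet-like basement membrane under epithelia and around vessels. Elastin and its microfibrils give tissue recoil, lysyl oxidases crosslink collagen and elastin, and matricellular proteins such as SPARC, thrombospondins and tenascin-C modify how cells hold on to the matrix. In tumours fibroblasts are the best known makers of this matrix, and macrophages are known for degrading it as well as for making some of its parts. Because a bulk array sums all cells in the culture, fewer cells of a type and less RNA per cell cannot be told apart.

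Each value is the deposited log ratio of an array, read as log2 because its base is not stated in the sources used here, so that 1 is a 2-fold difference. It compares 2 conditions for 1 feature but gives no level that could be set against another gene. Ratios are given here as TAM over PEC or LPS over no LPS. Where array names are left out, 4 values stand in the order TAM-b, TAM-2R, then TAM-3, then TAM-8, and 2 values in the order PEC1 then PEC2, TAM-trial then TAM-16, or TAM1 then TAM7. The labels name the RNA of each channel but not the dyes, so the direction is likely and not certain: it rests on 29 features of 28 LPS-induced genes, whose median log2 ratio was 2.10 on PEC1 and 2.44 on PEC2 with the ratio read as channel 2 over channel 1. By their labels TAM-2R and TAM1 had the channels exchanged, and both were turned. The LPS-induced genes, for TAM over PEC with LPS in both, then had a median of -1.92 on TAM1 and -1.68 on TAM7, which was not turned. Saa3, 1 of these genes, was at -7.62 on TAM-2R after turning and between -7.0 and -5.15 on the other untreated arrays. It was picked from the fit of the turned arrays. After turning, TAM-2R correlated only weakly with the other untreated arrays over all features (r = 0.04 to 0.10, n = 9596 features of the same arrays), so signs that rest on it are less secure. TAM-3, which was not turned, correlated as weakly with the other untreated arrays (r = 0.04 to 0.08), and TAM-b with TAM-8 at 0.33. Of the 3 versions in which the arrays were printed, TAM7, TAM-8 and TAM-trial were of v9p2, PEC1 alone was of v1p1, and v3p6 served for the other 6. Between 4.39% and 49.1% of an array's variance followed the position of a feature in groups of 96, where 0.99% would be given by no position effect. Position here is the place of a feature in the order of the feature numbers, and coordinates on the array were not used.

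Of the genes the results turn on, Loxl1, Eln and Thbs1 had no promoter sequence on record. Sequences are given for Bgn and Sparc, both among the highest ratios in untreated TAM described next. A further one is the stretch shared by Col4a1 and Col4a2, a divergent pair that the arrays measured separately. All are from RefSeq on GRCm38.p6, 5′ to 3′, with capitals for the GC box (GGGCGG, either strand). The first is the 250 bases before the start of Bgn (chrX:73483351-73483600, plus strand), and the second the 250 bases before that of Sparc (chr11:55420081-55420330, minus strand). The last is the 78 bases on the plus strand where the full promoter records of Col4a1 and Col4a2 overlap (chr8:11312777-11312854). These records were not cut to the 250 bases before a start, so this stretch may reach past the starts.
Bgn: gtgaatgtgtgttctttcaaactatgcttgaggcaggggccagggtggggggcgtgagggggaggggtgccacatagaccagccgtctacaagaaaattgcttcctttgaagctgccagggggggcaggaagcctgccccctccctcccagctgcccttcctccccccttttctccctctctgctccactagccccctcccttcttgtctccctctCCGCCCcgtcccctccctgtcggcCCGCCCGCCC
Sparc: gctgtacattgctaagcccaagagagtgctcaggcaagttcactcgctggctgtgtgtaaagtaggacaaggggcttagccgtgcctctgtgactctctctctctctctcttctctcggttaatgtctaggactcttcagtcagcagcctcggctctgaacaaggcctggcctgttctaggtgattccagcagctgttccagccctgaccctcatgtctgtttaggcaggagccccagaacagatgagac
Col4a1 and Col4a2: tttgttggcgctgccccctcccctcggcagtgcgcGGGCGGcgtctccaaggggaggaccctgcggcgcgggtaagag
The Bgn window held 3 GC boxes, the shared Col4a1 and Col4a2 stretch 1 and the Sparc window none. Over the 43 promoters on record for 36 of the 58 genes, 55.8% held a GC box in the 250 bases, compared with 32.7% of 32851 promoters of that length. The median GC content of these windows was 58.8% for the matrix genes and 52.4% for all. A TATA box (TATAAA) was in 16.3% against 12.4%, a CCAAT box (CCAAT) in 37.2% against 33.8%, and an AP-1 site (TGANTCA) in 4.65% against 6.75%, each on either strand. These motif matches describe the sequences and were not tied to the ratios.

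In untreated TAM against PEC, the matrix features with the highest ratios were those of Sparc, Loxl1, Bgn and Col14a1, and the lowest were Eln, Lama2, Lamb3 and Thbs1. None of the 64 passed the test (limma, Benjamini-Hochberg over all 9596 features, adjusted p under 0.05), where 0.406% of all features did. At an unadjusted p under 0.05 there were 12 of the 64 (18.8%), 9 higher and 3 lower in TAM, compared with 14.0% of all features. The mean ratio was above 0 for 41 of the 64 (64.1%) and for 48.4% of all features, with medians of 0.21 and -0.03. The share of the 64 depends on the turning of TAM-2R, and that of all features changed little. Without turning, 31 of the 64 means (48.4%) and 49.7% of all features were above 0, and the median of the 64 was -0.04. With position removed, the median of the 64 was 0.06. A mean difference of at least 2-fold with the same sign on all 4 arrays was found higher in TAM for 6 matrix features, or 9.38%, where the share of all features was 3.61%, and lower in TAM for 2, or 3.12%, against 4.3% of all features.

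**Figure D1:**
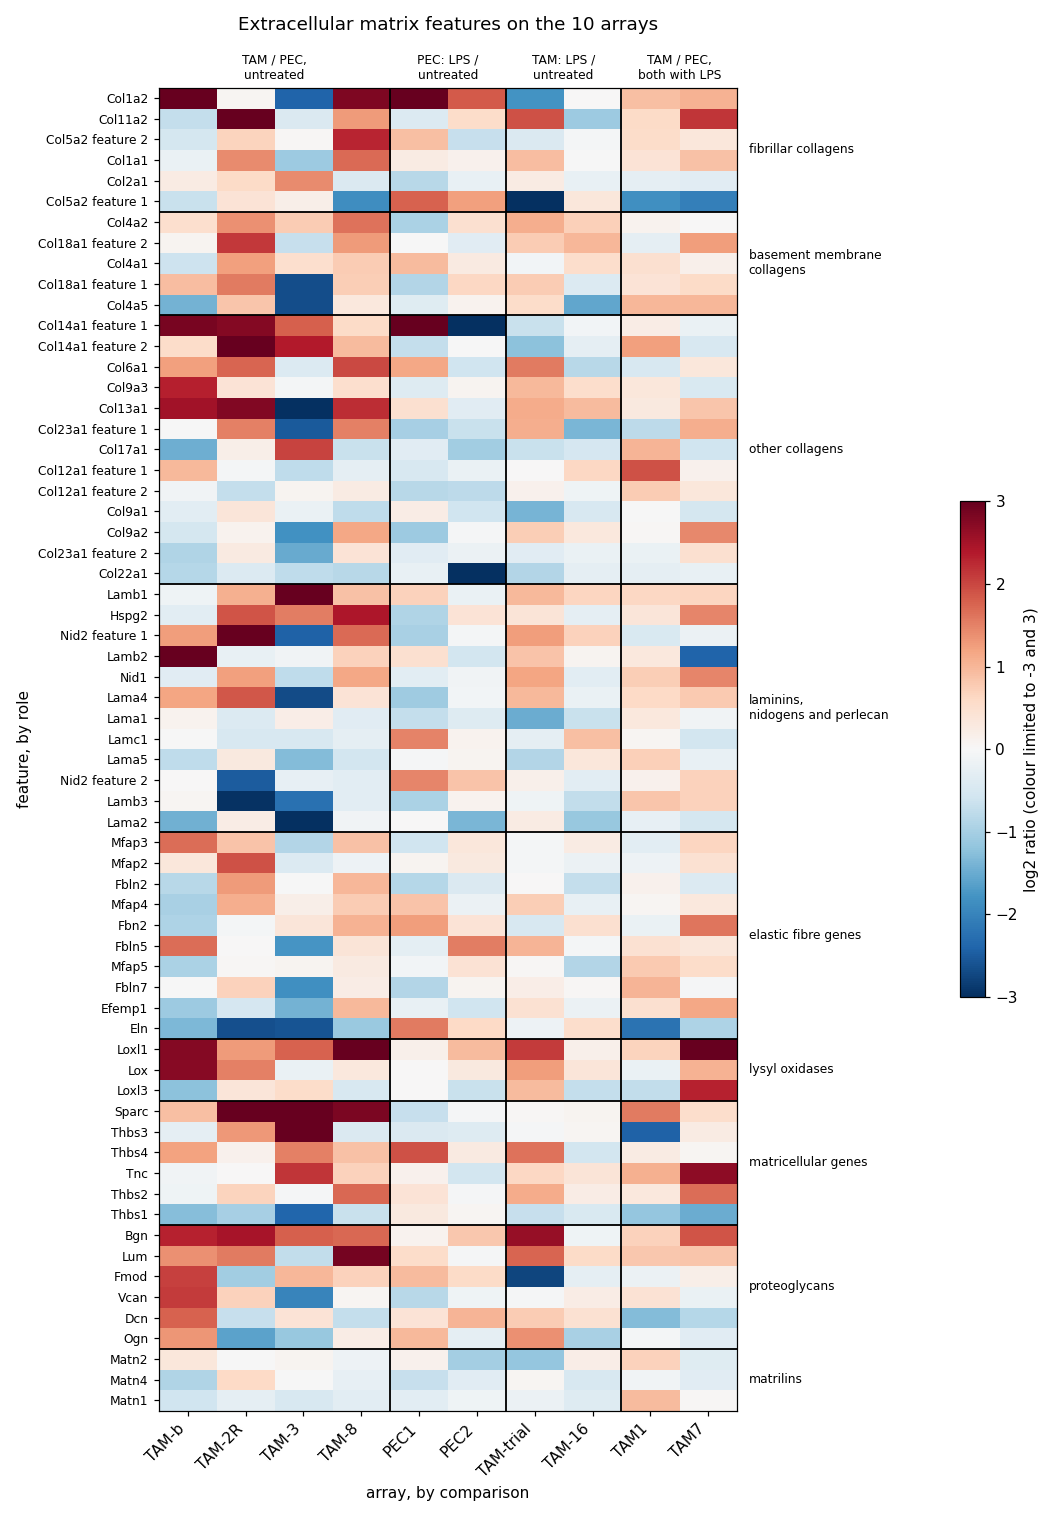
Log2 ratios of the 64 matrix features (rows, by role, ordered within a role by the mean in untreated TAM against PEC) on the 10 arrays (columns, by comparison); red is higher in TAM or with LPS, and colour stops at -3 and 3. Bgn, Loxl1, Sparc and both Col14a1 features are red on all 4 untreated arrays and Eln and Thbs1 blue, while TAM-3 is blue for many collagens and laminins that are red on the other 3.

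Bgn encodes biglycan, a small leucine-rich proteoglycan that binds collagen fibrils. Its log2 ratio was 2.30 on TAM-b, 2.48 on TAM-2R, 1.79 on TAM-3 and 1.72 on TAM-8. All 4 arrays lay above 0 within a narrow range, and the mean was 2.07 ± 0.38 (SD, n = 4), or 4.21-fold, with adjusted p = 0.0953 (limma). With both cells under LPS, Bgn was at 0.68 on TAM1 and 1.89 on TAM7, again above 0. The untreated mean was 1.11 after the position of features in the numbering was removed and 0.83 if TAM-2R was not turned.

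Loxl1, a lysyl oxidase needed for elastic fibre upkeep, had log2 ratios of 2.76 on TAM-b, 1.27 on TAM-2R, 1.78 on TAM-3 and 4.91 on TAM-8. The array of print v9p2 was the highest, and the mean of 2.68 ± 1.61 (SD, n = 4) had adjusted p = 0.128 (limma). Under LPS the v9p2 array was also the higher, with 3.19 on TAM7 and 0.67 on TAM1, and with LPS against no LPS in TAM the v9p2 array TAM-trial was at 2.09 and TAM-16 at 0.15. The print therefore moved with the size of the Loxl1 ratio in all 3 comparisons, and its part in the result was not tested beyond the alternative fits. With print as a block the mean was 2.04 untreated, 0.65 with LPS in both cells and -0.16 for LPS in TAM. In that order it was 1.93, 0.83 and -0.39 with a dye term for each print, and 1.93, 0.67 and 0.15 on print v3p6 alone. Of the other lysyl oxidases, Lox ran 2.73, 1.50, -0.20 and 0.32 over the same 4 arrays and Loxl3 ran -1.22, 0.36, 0.55 and -0.47, so neither kept one sign.

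Sparc encodes a collagen-binding matricellular protein. It stood at 0.90 on TAM-b, 4.21 on TAM-2R, 9.0 on TAM-3 and 2.83 on TAM-8. All were above 0, but the spread was wide: the mean was 4.23 ± 3.46 (SD, n = 4), or 18.8-fold, with adjusted p = 0.128 (limma), and it was 2.65 without TAM-3 and 2.13 if TAM-2R was not turned. The 2 arrays with LPS in both cells gave 1.56 on TAM1 and 0.53 on TAM7, below 3 of the 4 untreated arrays, and the ratio of LPS to no LPS in TAM was 0.04 and 0.08.

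Eln, which encodes elastin, was the member with the lowest mean and the smallest adjusted p. It had log2 ratios of -1.35 on TAM-b, -2.64 on TAM-2R, -2.58 on TAM-3 and -1.12 on TAM-8, all below 0, with a mean of -1.92 ± 0.80 (SD, n = 4) and adjusted p = 0.0835 (limma). The mean was -0.60 if TAM-2R was not turned, under 2-fold. Under LPS it was also below 0, at -2.21 on TAM1 and -0.92 on TAM7. In PEC the ratio of LPS to no LPS was 1.57 on PEC1 and 0.59 on PEC2, and in TAM it was -0.15 and 0.52. Thbs1, thrombospondin 1, an inhibitor of vessel growth that platelets and macrophages release, was lower on the same 6 arrays: -1.27, -0.99, -2.39 and -0.67 on the untreated arrays and -1.15 and -1.50 with LPS. Its untreated mean of -1.33 ± 0.75 (SD, n = 4) had adjusted p = 0.15 (limma), and it was -0.98 without TAM-3 and -0.83 if TAM-2R was not turned, both under 2-fold.

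**Figure D2:**
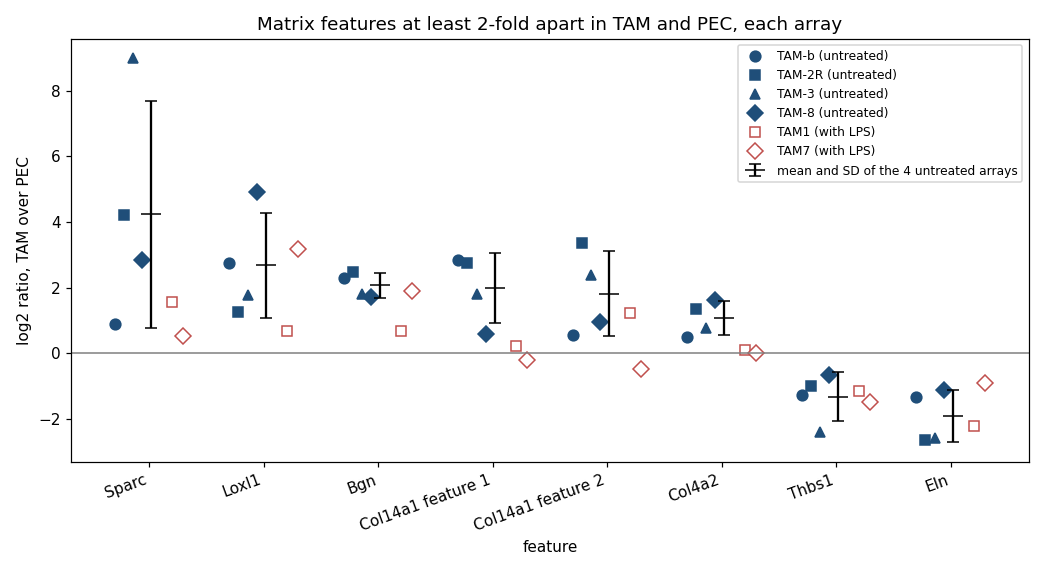
Log2 ratio of TAM over PEC (y axis) for the 8 matrix features that differed at least 2-fold on average with the same sign on all 4 untreated arrays (x axis); filled points are untreated arrays, bars their mean and SD, and open points the 2 arrays with LPS in both cells. Bgn, Loxl1 and Sparc lie above 0 and Thbs1 and Eln below 0 on all 6 arrays, whereas Col14a1 and Col4a2 are near 0 or mixed with LPS.

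The collagens were the largest family, with 24 features for 19 genes, and their fibrillar members did not move as a unit. Col1a1 and Col1a2 encode the 2 chains of type I collagen, the main fibre of connective tissue. Col1a1 was at -0.20 on TAM-b, 1.42 on TAM-2R, -1.09 on TAM-3 and 1.71 on TAM-8, and Col1a2 at 6.25, 0.07, -2.41 and 2.80. The 2 chains had the same sign on TAM-2R, TAM-3 and TAM-8, and both means, 0.46 ± 1.33 and 1.68 ± 3.72 (SD, n = 4), were within the spread of the arrays. Col2a1, Col11a2 and both Col5a2 features also had both signs among the 4 arrays, and the fibrillar collagens had adjusted p from 0.492 to 0.709 (limma).

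Among basement membrane collagens, Col4a2 was at 0.50, 1.36, 0.76 and 1.62 in untreated TAM over PEC, a mean of 1.06 ± 0.52 (SD, n = 4, limma adjusted p = 0.237). Its divergent partner Col4a1, whose promoter stretch is printed above, was at -0.61, 1.22, 0.50 and 0.77, so the pair shared their sign on 3 of 4 arrays. With LPS in both cells Col4a2 was at 0.10 and 0.02, near 0. Col18a1, the source of endostatin, had features at 0.92, 1.57, -2.67 and 0.74 and at 0.09, 2.11, -0.68 and 1.28, both below 0 on TAM-3 alone. Col4a5 had both signs, from -2.67 to 0.84.

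Of the other collagens, Col14a1, which attaches to the surface of collagen fibrils, was above 0 on all 4 untreated arrays with both of its features. Feature 1 gave 2.84, 2.76, 1.79 and 0.57 and feature 2 gave 0.54, 3.36, 2.37 and 0.96. The means were 1.99 ± 1.06 and 1.81 ± 1.29 (SD, n = 4), with adjusted p = 0.445 and 0.184 (limma). Col13a1, a transmembrane collagen, had 2.53, 2.78 and 2.21 on TAM-b, TAM-2R and TAM-8 but -6.98 on TAM-3. Without TAM-3 its mean was 2.51 and it passed the test (limma adjusted p = 0.0329), in a fit that called 0.198% of all features. Col22a1 was the only collagen feature below 0 on all 4 arrays, between -0.85 and -0.40. Col6a1 was at 1.23, 1.74, -0.40 and 1.99 and Col9a3 at 2.34, 0.40, -0.05 and 0.50, and the features of Col9a1, Col9a2, Col12a1, Col17a1 and Col23a1 had both signs, with means between -0.43 and 0.12.

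The laminins, nidogens and perlecan, the remaining parts of the basement membrane, split evenly, with 6 of 12 means above 0 and a median of 0.04. Perlecan, Hspg2, the heparan sulphate proteoglycan of the basement membrane, was at -0.32 on TAM-b and at 1.89, 1.54 and 2.42 on the other 3, with a mean of 1.38 ± 1.19 (SD, n = 4, limma adjusted p = 0.257). Lamb1 had its mean of 1.98 from TAM-3, where it was at 6.08, while the other 3 arrays lay between -0.12 and 1.07. Lama2 had its mean of -1.83 from the same array, at -5.99, with -1.45, 0.22 and -0.11 on the others. Lamb3, at 0.06, -2.97, -2.23 and -0.31, was below 0 on 3 of 4 arrays with a mean of -1.36 ± 1.47. Lamc1, the gamma chain of most laminins, was below 0 on all 4 by little, from -0.48 to -0.02. Lama1, Lama4, Lama5, Lamb2, Nid1 and both Nid2 features had values on both sides of 0 or at 0.

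Among the remaining elastic fibre genes, no fibulin, fibrillin or Mfap feature kept one sign over the 4 arrays, and their means lay between -0.51 and 0.64. The proteoglycans other than Bgn were mixed as well. Lumican, Lum, was at 1.38, 1.55, -0.75 and 2.88, and its neighbour on chromosome 10, decorin, Dcn, was at 1.76, -0.70, 0.41 and -0.71. Versican, Vcan, ran from -1.99 on TAM-3 to 2.09 on TAM-b, and Fmod and Ogn also took both signs. Of the matricellular genes, Thbs4 was above 0 on all 4 arrays (0.14 to 1.50), Thbs3 reached 3.66 on TAM-3 with -0.44 to 1.31 on the others, and tenascin-C, Tnc, was at -0.11, 0.01, 2.14 and 0.68. The matrilins, cartilage matrix adaptors, were the flattest group, with means from -0.42 to 0.06.

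TAM-3 stood apart from the other untreated arrays. Only 25 of the 64 (39.1%) were above 0 there, against 31 (48.4%) on TAM-b, 47 (73.4%) on TAM-2R and 43 (67.2%) on TAM-8. Of all features, 45.1%, 48.1%, 52.2% and 51.0% were above 0 on these arrays in that order. The medians of the 64 were -0.23, -0.01, 0.59 and 0.53, and those of all features -0.14, -0.05, 0.06 and 0.02. The values on TAM-3 had an SD of 2.28 over the 64, compared with 1.16 to 1.44 on the other 3, and TAM-3 was also the widest over all features (1.57, compared with 1.03 to 1.37). Without TAM-3, 17 of the 64 (26.6%) had a mean at least 2-fold higher in TAM with 1 sign on the 3 remaining arrays, where 9.5% of all features did, and 1 was lower by that rule, where 4.62% were. The 17 included Col1a2, Col6a1, Col9a3, Col13a1, both Col18a1 features, Lama4, Nid2 feature 1, Lox, Lum and Mfap3, none of which kept its sign on TAM-3. This removal was chosen with the values known, and leaving out TAM-b, TAM-2R or TAM-8 in place of TAM-3 gave 8 (12.5%), 7 (10.9%) and 5 (7.81%) higher, where the shares of all features were 4.28%, 6.98% and 4.65%.

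**Figure D3:**
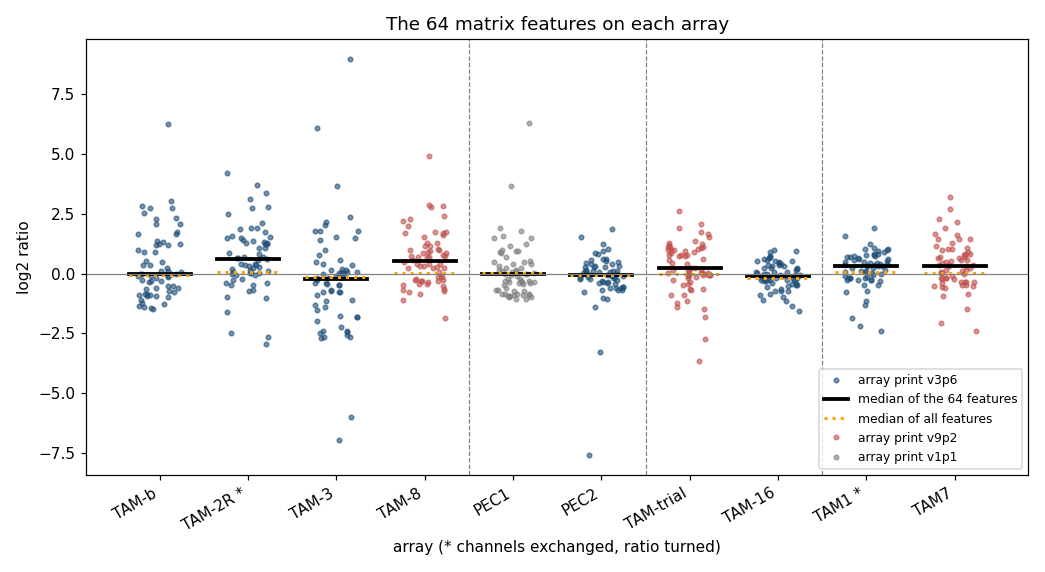
Log2 ratio (y axis) of each of the 64 matrix features on each array (x axis, comparisons divided by dashed lines), coloured by print version, with the median of the 64 as a black line and that of all features as a dotted line; asterisks mark arrays whose ratio was turned. The median of the 64 lies above that of all features on TAM-2R, TAM-8, TAM-trial, TAM1 and TAM7 by the most, and TAM-3 has the widest spread.

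Over the 64 features, pairs of untreated arrays correlated at r = 0.43 (TAM-b and TAM-8), 0.52 (TAM-2R and TAM-8) and 0.20 (TAM-b and TAM-2R), and TAM-3 with these at 0.00 to 0.24. Over all features the same 3 pairs had 0.33, 0.10 and 0.08, and TAM-3 with these arrays had 0.04 to 0.08. The features of a pair share 2 arrays, so these values describe the arrays. TAM-8 and TAM7, both of print v9p2, reached r = 0.58 over the 64 and 0.57 over all features, above each pair within a comparison. Both set TAM against PEC, without LPS on TAM-8 and with LPS on TAM7, so they share print and cell kinds. TAM-trial, also of v9p2, set LPS against no LPS in TAM. Over the 64 and over all features it had r = 0.48 and 0.52 with TAM-8, and 0.49 and 0.43 with TAM7. All 3 v9p2 arrays had a median of the 64 above 0 (0.53, 0.22 and 0.33). The 2 turned arrays did too (0.59 and 0.31), and in the deposited order their medians were -0.59 and -0.31, with 17 and 22 of 64 above 0. Print and channel order thus moved with the matrix medians across arrays, and their part in them was not tested beyond the alternative fits.

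Under LPS in both cells, TAM over PEC, the matrix features with the highest means were those of Loxl1, Tnc, Col11a2, Bgn and Nid1, and the lowest were Col5a2 feature 1, Eln, Thbs1, Thbs3 and Dcn. None of the 64 passed the test, where 0.0625% of all features did, and 4 had an unadjusted p under 0.05 (6.25%, compared with 8.53% of all features). Means were above 0 for 46 of 64 (71.9%) and for 55.8% of all features, with medians of 0.35 and 0.08; without turning TAM1, 51.6% of the 64 and 52.3% of all features were above 0, and the medians were 0.01 and 0.03. By size, 7 (10.9%) had a mean at least 2-fold higher with 1 sign on both arrays, against 6.8% of all features, and 4 (6.25%) were lower by that rule, against 9.19%. Tnc, tenascin-C, a glycoprotein of wounds and tumours, was at 1.06 on TAM1 and 2.69 on TAM7, a mean of 1.88 ± 1.15 (SD, n = 2) with adjusted p = 0.394 (limma). Col5a2 feature 1 was at -1.85 and -2.05, the closest pair among the lowest 5 (limma adjusted p = 0.55), while feature 2 of that gene was at 0.54 and 0.34. Decorin was at -1.30 and -0.86, and lumican next to it at 0.81 and 0.84, so the neighbours lay on opposite sides of 0. Type I collagen was above 0 in both chains, with Col1a1 at 0.40 and 0.89 and Col1a2 at 0.90 and 1.04. Lamb2 was at 0.32 and -2.40, on opposite sides. If TAM1 was not turned, the means of Eln, Thbs3 and Dcn were above 0, at 0.65, 1.33 and 0.22. Scaling the arrays to 1 spread raised the count of features higher by size to 13 (20.3%, compared with 10.1% of all features), with 4 lower as before (6.25%, compared with 12.0%).

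The untreated and the LPS-treated comparison of TAM with PEC rest on different arrays. Of the 6 features with a mean at least 2-fold higher in untreated TAM and 1 sign on every array, Bgn, Loxl1, Sparc and Col4a2 were also above 0 on both LPS arrays, and Col14a1 was not. That is 66.7%, next to 44.5% of the 346 features of the whole array that met the same rule. Both lower features, Eln and Thbs1, stayed below 0 on both, as did 52.3% of 413. Tnc, Nid1, Col11a2 and Col12a1 feature 1 were the reverse, with untreated values on both sides of 0, and with both arrays above 0 and a mean at least 2-fold higher under LPS.

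**Figure D4:**
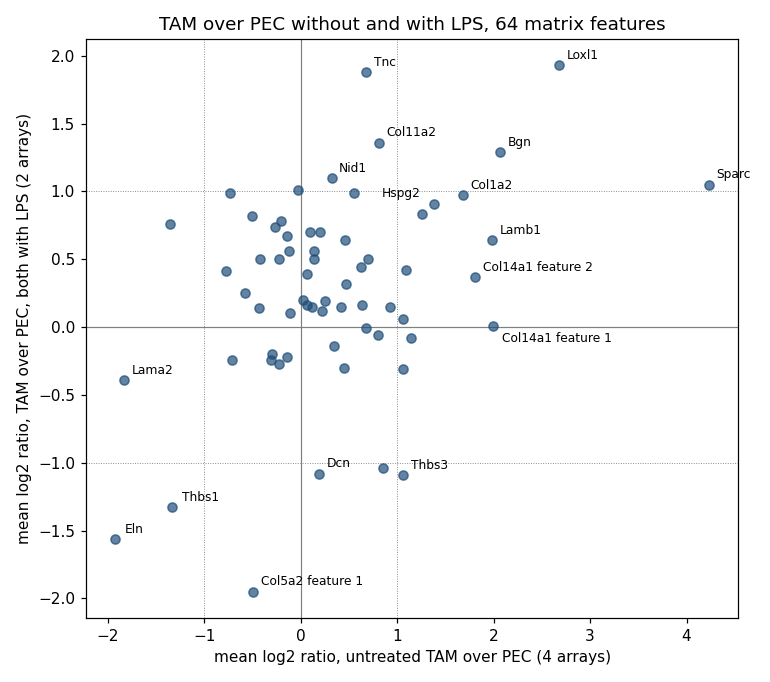
Mean log2 ratio of TAM over PEC for each of the 64 matrix features, untreated (x axis, mean of 4 arrays) and with LPS in both cells (y axis, mean of 2 arrays); dotted lines mark a 2-fold difference. Loxl1, Bgn and Sparc lie past 2-fold higher and Eln and Thbs1 past 2-fold lower on both axes, Thbs3 lies past it in opposite directions, and the other named points pass it on 1 axis.

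With LPS in PEC, type I collagen chain Col1a2 had the highest mean and Col22a1 the lowest. Means were above 0 for 29 of 64 (45.3%, compared with 47.1% of all features) and the median was -0.13, with -0.05 for all. None of the 64 passed the test, with 0.0104% of all features passing, and 1 had an unadjusted p under 0.05 (1.56%, compared with 7.76% of all features). By size, 5 (7.81%) had a mean at least 2-fold higher with 1 sign on both arrays, where 10.8% of all features did, and 1 (1.56%) was lower by that rule, where 3.52% were. The 5 higher were Col1a2 (3.65 on PEC1 and 1.85 on PEC2), Col5a2 feature 1 (1.77 and 1.23), Nid2 feature 2 (1.47 and 0.86), Thbs4 (1.92 and 0.28) and Eln. Their adjusted p ran from 0.718 to 0.784 (limma). The 2 arrays, of different prints, hardly correlated over the 64 (r = -0.06; 0.27 over all features).

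Col22a1, a collagen of tissue junctions, and Col14a1 show how far a single array carried a mean here. Col22a1 was at -0.22 on PEC1 and -7.60 on PEC2, while all other arrays of the series lay between -0.89 and -0.22 for it. The mean of -3.91 did not pass (limma adjusted p = 0.465), but a fit with the print as a block, which takes PEC1, the only array of its print, out of the estimate, gave -7.60 with adjusted p = 0.00256, calling 1.04% of all features. Col14a1 feature 1 was at 6.31 on PEC1 and -3.30 on PEC2, opposite signs for the same comparison, and feature 2 was at -0.71 and -0.02.

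LPS in TAM gave the smallest spread of matrix means, from -1.67 to 1.25. None of the 64 passed the test, nor did any feature of the array (0.0%), and 1 of the 64 had an unadjusted p under 0.05 (1.56%), as did 5.64% of all features. Means were above 0 for 39 of 64 (60.9%), against 43.4% of all features, and the median was 0.11, with -0.13 for all. By size 3 (4.69%) had a mean at least 2-fold higher with 1 sign on both arrays, against 3.79% of all features, namely Lum (1.74 on TAM-trial and 0.58 on TAM-16), Loxl1 and Col13a1 (1.12 and 0.95), and 2 (3.12%) were lower by that rule, against 8.47%, namely Fmod (-2.76 and -0.26) and Lama1 (-1.50 and -0.66). For Bgn the arrays differed, with 2.62 on TAM-trial and -0.12 on TAM-16, as they did for Col5a2 feature 1, with -3.67 and 0.34. Centring each array on its own median, which is -0.199 on TAM-16, put the median of the 64 at 0.21 and gave 6 higher (9.38%, compared with 5.55% of all features) and 1 lower by size (1.56%, compared with 5.66%). The arrays, of different prints, had r = -0.01 over the 64.

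The LPS response of TAM minus that of PEC, tested as a contrast, passed for none of the 64 and for 0.0% of all features, and 1 of the 64 had an unadjusted p under 0.05 (1.56%), where 6.58% of all features did. Its smallest adjusted p was 0.754, for Col5a2 feature 1, with means of 1.50 in PEC and -1.67 in TAM and a difference of -3.16 ± 1.19 (SE). The same quantity can be read from the arrays that set TAM against PEC, as the ratio with LPS minus the ratio without, and for Col5a2 feature 1 this was -1.46. For Bgn the 2 readings were 0.79 and -0.78, for Col4a2 1.16 and -1.0, for Nid2 feature 1 1.48 and -1.37, and for Sparc 0.43 and -3.19. The sign of the difference was thus not settled for these features, nor for Loxl1, Lamb2, Col6a1 and others whose readings also had opposite signs.

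The 6 genes with 2 features allow a look at how far a feature stands for its gene. Col14a1 and Col23a1 had the same sign for both features on 9 of 10 arrays, Col18a1 on 7, Col12a1 on 6, Col5a2 on 5 and Nid2 on 3. On TAM-2R, Nid2 feature 1 was at 3.73 and feature 2 at -2.49, and with LPS in PEC the 2 means were -0.52 and 1.16. For Col5a2 under LPS, TAM over PEC, the means were -1.95 and 0.44. Ratios of Nid2 and Col5a2 therefore hold for a feature and not for the gene. Over all 631 genes with more than 1 feature, the features correlated at r = -0.006 to 0.111 within an array; whether the annotation fits the features of all 3 prints was not tested, so each gene name here is that of the platform table.

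**Figure D5:**
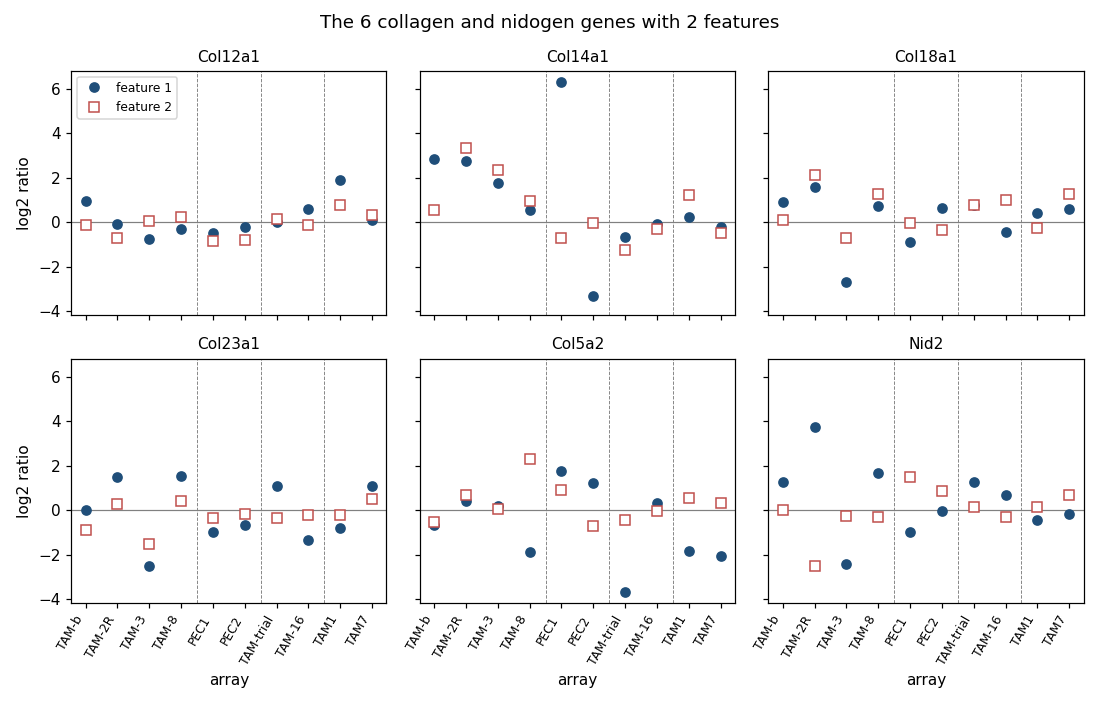
Log2 ratio (y axis) of both features of the 6 genes with 2 (filled circles and open squares) on the 10 arrays (x axis, comparisons divided by dashed lines). The features of Col14a1 share their sign on 9 of 10 arrays, PEC1 and PEC2 holding their widest gaps, while those of Nid2 do so on 3.

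Genes that make, cut, bind or regulate the matrix were read from lists chosen by function. Some of these lists, and of the marker lists below, hold both the old and the new symbol of a gene. Their totals therefore count symbols, and the share of genes measured is understated. Of 32 symbols for collagen processing and crosslinking, 16 were measured with 17 features, and none passed in a comparison. Means above 0 in untreated TAM were found for 9 of the 17 features and for 48.4% of all features. In untreated TAM, Serpinh1, the collagen chaperone HSP47, was at 0.22, 3.40, 3.93 and 2.31 (limma adjusted p = 0.105), and Pcolce, an enhancer of collagen propeptide cleavage, at 1.38, 0.88, 1.36 and 1.33 (limma adjusted p = 0.152). Tgm2, a crosslinking transglutaminase, was at -1.74, -1.46, -0.70 and -2.63 (limma adjusted p = 0.128). P4ha2 of the same list was also below 0 on all 4 arrays, at -1.44, -0.32, -1.98 and -0.81 (limma adjusted p = 0.205). Of matrix proteases and inhibitors, 24 of 37 were measured with 25 features, and only Plaur, the urokinase receptor, passed, being lower in TAM. Plaur was at -2.60, -2.70, -2.21 and -1.91 untreated (mean -2.36, limma adjusted p = 0.013). With LPS in both cells it was at -4.59 and -3.72 (mean -4.15, limma adjusted p = 0.0088). Of all features, 0.406% passed untreated and 0.0625% with LPS in both cells. Of matrix receptors, 22 of 35 were measured with 22 features, and only syndecan 1, Sdc1, passed. It was lower in untreated TAM, from -4.43 to -2.44 on the 4 arrays (mean -3.21, limma adjusted p = 0.0136). Of the TGF-beta axis, which drives matrix genes in fibroblasts, 21 of 35 symbols were measured and none passed. Its array medians in untreated TAM lay between 0.11 and 0.24.

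Markers of other cells that could carry matrix RNA were set beside the untreated comparison. Of the fibroblast and pericyte markers that are not matrix genes, 22 of 31 were measured with 23 features. A mean above 0 was found for 13 features, and for 48.4% of all features. At an unadjusted p under 0.05 (limma), 3 were higher and 2 lower, where 14.0% of all features passed. The list median was 0.78 on TAM-b, 0.15 on TAM-2R, 0.23 on TAM-3 and 0.38 on TAM-8, above 0 on all 4. The medians of all features were -0.05, 0.06, -0.14 and 0.02 in that order. Over the means the median was 0.15 for the list and -0.03 for all features. Of 2 Igfbp4 features 1 rose (mean 2.18, limma adjusted p = 0.0389), where 0.406% of all features passed. Pdgfra, a defining fibroblast receptor, was at 2.42, 0.51, -0.48 and 4.01, and Pdgfrb and Thy1 had means of -0.16 and -0.43. None of the endothelial (12 of 16 symbols), mesothelial and epithelial (8 of 14), platelet (4 of 10), neutrophil (9 of 13), lymphocyte (9 of 16) or macrophage (11 of 19) markers passed. The list medians over the means were 0.05, 0.15, 0.81, 0.82, 0.00 and -0.41. The neutrophil list was likewise above 0 on all 4 arrays, with medians of 0.59, 0.07, 1.92 and 0.65. Aif1 and Cd68, both macrophage markers, were at 1.11 to 3.81 and at -3.29 to -0.14. A ratio does not show whether a marker was present at all, and the part of these cells in the matrix ratios was not tested.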

How the data were processed

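Total RNA of mouse macrophages was compared on 10 spotted cDNA arrays of 2 channels. For every feature of an array the authors deposited a log ratio, read here as log2. The scanner, dyes, background correction and normalization, and the base of the logarithm, are steps not given in the sources used here. Dim spots were not filtered, for want of channel intensities in this work. Of 9596 features, 7486 had 1 gene symbol in the platform annotation, 483 several and 1627 none; the 64 members were found by symbol, and all 64 matched RefSeq by Entrez identifier.

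Groups came from the titles and channel sources. Ratios were taken as channel 2 over channel 1, with TAM-2R and TAM1 turned. A linear model was fitted to every feature with lmFit and eBayes of limma 3.58.1 (R 4.3.3), with 1 mean per comparison (6 residual degrees of freedom), two-sided, with Benjamini-Hochberg adjustment over all features and a threshold of 0.05; it was tested on simulated data. Features were kept singly. A second count used a mean of at least 1 (2-fold) with 1 sign on every array. The number of arrays limits the precision. Named were members past the threshold, the 5 highest and 5 lowest of each comparison and a panel by role; other members are given by their array values.

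Alternatives were: arrays not turned, dye terms, print as a block, a fit of all comparisons as a loop, scaling, centring, removal of position, features of a gene averaged, own arrays only, print v3p6 only, a robust prior, small ratios left out, and each array left out. The members, gene lists and cell markers were chosen with earlier results of these data known. Drawing and tables used Python with pandas and matplotlib.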

Additional observations from a re-analysis of the deposited data

Results flagged for a closer look

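Col13a1 on TAM-3 lay far from the other untreated arrays. Its log2 ratio was -6.98 there and between 2.21 and 2.78 on the other 3, and the mean without it was 2.51. Nid2 feature 2 on TAM-2R, an array whose channels were exchanged, was at -2.49, with the other 3 between -0.32 and 0.00, and the mean without it was -0.19. Chance places about 1 in 20 groups past this limit (Dixon's critical value for 4 samples). It was passed by 2 of the 64 matrix features (3.12%) and by 672 of all 9596 (7.0%), and 309 of those 672 had TAM-3 as the distant array.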

How the results depend on the processing

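The count of matrix features past the test, 0 in each comparison, was 0 under each alternative run except that Col22a1 passed for LPS in PEC and for the difference of the LPS responses (1 each) with print as a block and with a dye term for each print. Leaving out 1 array gave 0 to 1 for untreated TAM against PEC, for LPS in PEC and for the difference, and 0 for the other 2. Over all features the calls moved from 39 to between 0 and 39 in untreated TAM against PEC, from 1 to between 0 and 100 for LPS in PEC, from 0 to between 0 and 3 for LPS in TAM and from 6 to between 0 and 120 for TAM against PEC with LPS.

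The 2-fold counts moved more. Without turning, untreated TAM against PEC had 1 higher and 1 lower (6 and 2 as reported), and TAM against PEC with LPS 2 higher and 1 lower (7 and 4). With position removed, untreated TAM had 1 lower, LPS in TAM 0 higher and 1 lower (3 and 2), and TAM against PEC with LPS 4 higher; scaling gave the latter 13 higher. Centring gave LPS in TAM 6 higher and 1 lower, print v3p6 alone 0 higher and 4 lower, and leaving out small ratios 1 lower. LPS in PEC had 3 higher with features averaged (5 as reported) and 5 lower on print v3p6 alone (1). Leaving out 1 array gave 5 to 17 higher and 1 to 4 lower in untreated TAM, 4 to 9 and 2 to 5 for LPS in PEC, 0 to 15 and 4 to 7 for LPS in TAM, and 6 to 15 and 3 to 5 for TAM against PEC with LPS. Fits with added terms, own arrays only or a robust prior give no such counts.

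Signs turned for these named features. Without turning, Lamb3 was at 0.12 and Nid2 feature 2 at 0.48 in untreated TAM, and Eln at 0.65, Thbs3 at 1.33 and Dcn at 0.22 with LPS; averaged over its features Nid2 was at 0.15. For LPS in PEC, Col23a1 feature 1 was at 0.39 with a dye term for each print, Lama2 at 0.19 with a dye term, 0.33 with a dye term for each print and 0.02 in the loop fit, Nid2 feature 2 at -0.26 in the loop fit, and Col14a1 feature 1 at -3.30 with print as a block or v3p6 alone and -3.21 with a dye term for each print. For LPS in TAM, print v3p6 alone gave Col5a2 feature 1 at 0.34, Col1a2 at 0.00 and Bgn at -0.12, and Loxl1 was at -0.16 with print as a block, -0.39 with a dye term for each print and -0.21 in the loop fit. Col11a2 with LPS was at -0.06 with a dye term for each print. Leaving out 1 array, LPS in PEC ran from -3.30 to 6.31 for Col14a1 feature 1; LPS in TAM ran from -3.67 to 0.34 for Col5a2 feature 1, from -1.80 to 0.00 for Col1a2 and from -0.12 to 2.62 for Bgn; and TAM against PEC with LPS ran from -2.42 to 0.24 for Thbs3. The cause was not tested.

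Without turning, 20 of the 64 changed sign in untreated TAM against PEC, with position removed 13 and with print as a block 8. Eln, Thbs1, Bgn, Loxl1 and Sparc kept their sign in that comparison under each alternative, with adjusted p (limma) from 0.0753 to 0.822, 0.142 to 0.802, 0.0658 to 0.762, 0.116 to 0.802 and 0.102 to 0.802. Dye and print are partly tied to the comparisons, with 2 to 4 arrays each, and signal over background was not used here, so dim spots cannot be told from bright ones. No paired analysis was possible because no 2 comparisons share 2 replicate names.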

Other observations

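The 11 features of macrophage markers had medians of 1.70 on PEC1 and 1.24 on PEC2 for LPS in PEC, -1.88 on TAM-trial and 0.19 on TAM-16 for LPS in TAM, and -1.49 on TAM1 and -1.58 on TAM7 for TAM against PEC with LPS. None of the 11 passed the test in these comparisons (limma, adjusted p under 0.05), where 0.0104%, 0.0% and 0.0625% of all features did. An unadjusted p under 0.05 was found for 3, 0 and 5, and for 7.76%, 5.64% and 8.53% of all features. For the LPS response of TAM minus that of PEC, 0 of the 11 had a mean above 0, where 44.9% of all features did, and the median was -2.11. None passed after adjustment, and 7 were lower at an unadjusted p under 0.05 (limma), where 6.58% of all features passed. The macrophage list names Cd14, which is also on the list of LPS-induced genes. The cause was not tested.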
